A study of Mus musculus with 8 samples.

Results

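The genes described here are the transcription factors STAT3, CREB1, BRCA1, PAX6 and SMAD3, the Janus kinases JAK1 and JAK2, and the feedback inhibitors SOCS2, SOCS3 and CISH, all taken from the table by their gene symbol. They were picked as transcription factors known to act below the cannabinoid 1 receptor (CB1R) in neurite outgrowth, together with genes of the Stat3 feedback loop. Of the 10 genes, 9 were listed among the 16974 genes of the table, and SOCS2 was not analysed here. The mouse symbols Stat3, Creb1, Brca1, Pax6, Smad3, Jak1, Jak2, Socs3 and Cish are used from here on. Of the 9 genes, 8 had a mean of at least 1 FPKM over all libraries and entered the comparisons across genes, and Socs3 with a mean of 0.884 FPKM did not. An FPKM is a fragment count divided by transcript length and by the size of its library, here scaled by upper-quartile normalization.

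The cells were N2A, a neuroblastoma line of the mouse that extends neurites when its CB1R is stimulated. The cells were starved for 16 h in serum-free medium with bovine serum albumin and then received either HU210, a potent CB1R agonist, at 2 µM or DMSO without drug, and were harvested for mRNA at 2, 4, 6 and 8 h. The starvation was shared by both arms, and no transgene or knockdown is named for these libraries. Each of the 8 conditions is 1 library, for which mRNA of 2 to 3 separate experiments had been pooled, so that a difference at 1 time point has no replicate check, and the table holds no read counts, so that the number of fragments behind each FPKM is not known here.

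Of 13 markers of sympathetic neuroblastoma, 10 were listed, and all 10 had a mean of at least 1 FPKM. Hand2 with 84.8 and Mycn with 11.8 FPKM lay well above that limit, and Th with 2.00 and Dbh with 1.14 FPKM near it. The summed level of the 10 ran from 1209 to 1349 FPKM with HU210 and from 1204 to 1317 FPKM with DMSO. Prph and Uchl1, with means of 490 and 440 FPKM, were its largest parts. The listed fibroblast markers summed to at most 2.45 FPKM in any library, the endothelial ones to at most 2.13 FPKM, and those of macrophages and astrocytes to at most 0.614 FPKM and 0.768 FPKM. Only Dcn with 1.19 and Pecam1 with 1.04 FPKM among these other markers had a mean of at least 1 FPKM, near that of Dbh. At 4 h the change of a gene with HU210 moved with its GC content over the 11311 genes tested (Spearman's rho 0.50, a description across genes within 1 pair of libraries), while at 2, 6 and 8 h rho was 0.15, −0.27 and −0.14. For the regulators, and for named list genes whose call depends on it, the 4 h value is therefore also given after removing the trend on GC content and transcript length. With it removed, 6.43% of the genes tested were higher and 14.2% lower by at least 1.3-fold at 4 h.

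Janus kinases bound to cytokine receptors phosphorylate STAT proteins, which then pair, enter the nucleus and bind DNA. Cish and the Socs genes are among the targets of STATs, and their proteins bind the receptors or the kinases and so close a negative feedback loop. Creb1 binds the cyclic AMP response element (CRE) and is switched on by phosphorylation, as Stat3 is, so that the mRNA level of either factor is a measure of its supply and not of its activity. Stat3 and Creb1 are known as mediators of neurite outgrowth, Brca1 is best known for DNA repair, Pax6 for the fate of neural progenitors, and Smad3 as the carrier of TGF-β signals to the nucleus.

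The RefSeq promoter windows of the 9 genes (build GRCm38.p6, which is not the mm9 build of the expression data) were searched on both strands for the STAT motif TTCNNNGAA, the full CRE palindrome TGACGTCA and its core TGACG, which the palindrome contains in both directions. A window of 300 bases runs from 250 bases before the start of a gene to 50 bases after it, with the start at base 251. Pax6 has 2 windows, which gave 10 windows in all. Of these, 2 held the STAT motif, 2 held the CRE palindrome and 5 held the core, and of all 32851 windows of the same length 8.3%, 1.79% and 20.8% did. The STAT motif stood in Cish and Socs3, and the palindrome in Jak1 and the upstream window of Pax6. These 4 windows are shown in transcript direction, with the matched bases in capitals, because they belong to the feedback genes and to the genes with the palindrome. They lie at chr9:107296409-107296708 (plus strand, Cish), chr11:117969317-117969616 (minus strand, Socs3), chr2:105668646-105668945 (plus strand, Pax6) and chr4:101265174-101265473 (minus strand, Jak1).
Cish: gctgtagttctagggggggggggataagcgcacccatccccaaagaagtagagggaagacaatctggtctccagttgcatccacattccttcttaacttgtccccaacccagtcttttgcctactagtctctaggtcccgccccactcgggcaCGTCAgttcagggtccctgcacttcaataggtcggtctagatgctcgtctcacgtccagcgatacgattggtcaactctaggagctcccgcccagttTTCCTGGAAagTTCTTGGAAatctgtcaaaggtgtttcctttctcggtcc
Socs3: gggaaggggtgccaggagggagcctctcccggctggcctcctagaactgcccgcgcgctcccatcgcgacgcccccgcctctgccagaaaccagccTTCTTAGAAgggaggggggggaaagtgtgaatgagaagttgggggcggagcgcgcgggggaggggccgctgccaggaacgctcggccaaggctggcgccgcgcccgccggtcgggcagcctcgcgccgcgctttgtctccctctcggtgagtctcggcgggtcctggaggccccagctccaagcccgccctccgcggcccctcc
Pax6: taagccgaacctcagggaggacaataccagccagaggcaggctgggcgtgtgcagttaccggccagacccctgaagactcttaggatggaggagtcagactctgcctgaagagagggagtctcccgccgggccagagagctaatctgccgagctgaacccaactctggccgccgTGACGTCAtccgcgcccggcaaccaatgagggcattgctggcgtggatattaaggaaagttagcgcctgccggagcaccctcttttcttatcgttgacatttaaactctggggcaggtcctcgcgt
Jak1: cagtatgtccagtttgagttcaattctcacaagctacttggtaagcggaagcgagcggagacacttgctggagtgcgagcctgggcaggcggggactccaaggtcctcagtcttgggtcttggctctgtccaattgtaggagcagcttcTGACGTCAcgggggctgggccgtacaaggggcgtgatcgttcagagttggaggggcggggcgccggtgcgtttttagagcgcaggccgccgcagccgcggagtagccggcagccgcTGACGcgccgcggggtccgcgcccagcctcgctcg
In Cish the matches TTCCTGGAA and TTCTTGGAA lie at bases 251 to 259 and 262 to 270, right after the start of the gene, and a core stands at bases 154 to 158. The Socs3 match TTCTTAGAA lies at bases 97 to 105. The palindrome lies at bases 175 to 182 in Pax6 and at bases 150 to 157 in Jak1, where a further core follows at bases 266 to 270. The windows of Stat3, Creb1, Smad3 and Jak2 held none of these letters, and that of Brca1 held 3 cores. A match is a stretch of letters and no measured binding.

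Stat3 had the highest level of the 9 genes, with a mean of 37.7 FPKM, followed by Jak1 with 22.4, Creb1 with 14.9, Brca1 with 13.4, Pax6 with 10.2, Jak2 with 4.10, Smad3 with 3.36, Cish with 2.91 and Socs3 with 0.884 FPKM. Since FPKM are scaled to transcript length, these levels can be set side by side. The range of Stat3 over the 8 libraries, 27.1 to 48.2 FPKM, lay just above that of Jak1, 19.2 to 27.1 FPKM. The ranges of Jak1 and Creb1, of Creb1 and Brca1 and of Brca1 and Pax6 overlapped, as did those of Jak2, Smad3 and Cish. Pax6 never came down to the range of Jak2, and every library of Cish lay above every library of Socs3.

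**Figure D1:**
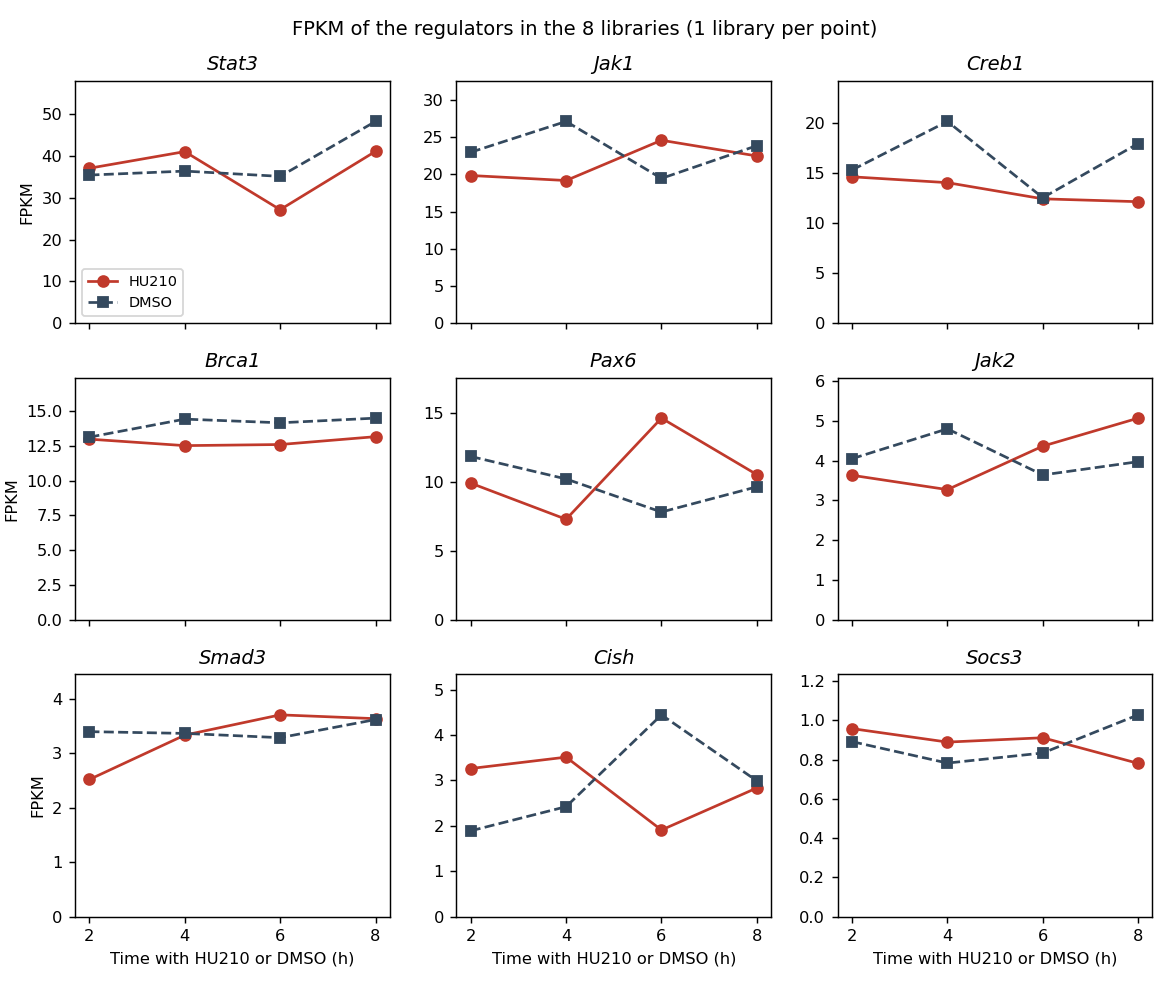
FPKM of the 9 regulators against time, with 1 panel per gene and its own axis from 0, red circles for HU210 and dark squares for DMSO, each point 1 library without error. Stat3 and Cish lay higher with HU210 at 2 h and 4 h and lower at 6 h and 8 h, Pax6 and Jak2 did the opposite, and Creb1 and Brca1 lay lower at every time.

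The first comparison asks whether supply of the Stat3 branch changed at each time with HU210. Stat3 (ENSMUSG00000004040, mm9 chr11:100746412-100800854, minus strand) had 37.0, 41.0, 27.1 and 41.1 FPKM with HU210 at 2, 4, 6 and 8 h, and 35.4, 36.4, 35.1 and 48.2 FPKM with DMSO. The HU210 library of 6 h was the lowest of the 8 and the DMSO library of 8 h the highest. The log2 changes, computed after adding 1 to each FPKM, were 0.063, 0.17, −0.36 and −0.23, none of which reached 1.3-fold. At 6 h, 1.97% of the genes tested had a lower change than Stat3, and at 8 h 4.09% did. Relative to the mean of all 4 DMSO libraries, the change of 6 h was −0.49, past 1.3-fold, and that of 8 h became 0.094, as the DMSO library of 8 h was itself high.

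Both kinases were lower with HU210 in the early libraries. Jak1 (ENSMUSG00000028530, chr4:100824972-100937887, minus strand), which serves most class I and II cytokine receptors, had 19.9, 19.2, 24.6 and 22.5 FPKM with HU210 and 23.0, 27.1, 19.5 and 23.9 FPKM with DMSO. In time order its log2 changes were −0.20, −0.48, 0.32 and −0.082, of which that of 4 h alone was past 1.3-fold. Jak2 (ENSMUSG00000024789, chr19:29326318-29387570, plus strand), the kinase of the growth hormone and erythropoietin receptors, had 3.63, 3.27, 4.36 and 5.07 FPKM with HU210 and 4.05, 4.80, 3.64 and 3.97 FPKM with DMSO. Its log2 changes were −0.12, −0.44, 0.21 and 0.29, so that it lay lower at the early times and higher at the late ones. For both kinases the ranges of the HU210 and DMSO libraries overlapped.

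Cish, an inhibitor of cytokine receptor signalling, differed from DMSO by more than 1.3-fold at 3 of the 4 time points, more than any other of the 8 genes. Cish (ENSMUSG00000032578, chr9:107198357-107205115, plus strand) had 3.26, 3.51, 1.91 and 2.83 FPKM with HU210 and 1.89, 2.42, 4.44 and 2.99 FPKM with DMSO. The log2 changes of Cish were 0.56, 0.40, −0.90 and −0.058. Only 0.557% of the genes tested had a higher change at 2 h, and only 0.354% a lower one at 6 h. The DMSO libraries alone ran from the lowest to the highest value of the 8, 1.89 to 4.44 FPKM. With all 4 DMSO libraries averaged as reference, they were 0.15, 0.24, −0.40 and 0.0020, so that the value of 6 h alone stayed past 1.3-fold. Of the exon bases of Cish, 7.46% and 4.07% are shared with the antisense transcripts Gm17041 and Gm17040, whose reads can be told apart from those of Cish only if strand was counted. A stranded library kit is named among the materials of the study, but whether counting used strand is not stated.

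Socs3 (ENSMUSG00000053113, chr11:117827393-117831361, minus strand), an inhibitor of receptors that signal through Stat3, was near the lower limit of the comparisons. It had 0.957, 0.889, 0.911 and 0.781 FPKM with HU210 and 0.891, 0.782, 0.833 and 1.03 FPKM with DMSO. The log2 changes were 0.050, 0.084, 0.060 and −0.19. The early sign was that of Cish, the sizes were far smaller, and at 6 h the signs of both genes differed.

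Creb1 was lower with HU210 at all 4 time points. Creb1 (ENSMUSG00000025958, chr1:64579378-64651121, plus strand) had 14.6, 14.1, 12.4 and 12.2 FPKM with HU210 and 15.3, 20.2, 12.6 and 18.0 FPKM with DMSO. The HU210 libraries lay close together, at 12.2 to 14.6 FPKM, and the DMSO libraries spread from 12.6 to 20.2 FPKM. The log2 changes were −0.061, −0.49, −0.012 and −0.53. The value of 4 h was not unusual, as 12.7% of the genes tested had a lower one, and it was −0.19 after removing the GC and length trend. The value of 8 h stood further out, with 0.725% of genes lower, and was −0.59 with the trend removed.

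Brca1 (ENSMUSG00000017146, chr11:101350078-101413269, minus strand), a part of several DNA repair complexes, was the steadiest of the 9 genes, with a 1.16-fold span between its lowest and highest library. It had 13.0, 12.5, 12.6 and 13.1 FPKM with HU210 and 13.1, 14.4, 14.1 and 14.5 FPKM with DMSO. The log2 changes were small and of 1 sign, −0.015, −0.19, −0.16 and −0.13. Creb1 and Brca1 were lower at 4 of 4 time points. Of all genes tested, 36.0%, 40.9%, 65.6% and 62.5% were higher at 2, 4, 6 and 8 h, and the share lower at all 4 was not counted here. An exact two-sided sign-flip permutation test over the time points gave p = 0.125 for both genes. Any gene with 1 sign at all 4 time points gets this value, the smallest that 4 time points allow, so it adds nothing to the count. The 4 time points are not replicates of a condition.

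Pax6 had the largest positive log2 change of the 8 genes at any time. Pax6 (ENSMUSG00000027168, chr2:105509053-105543317, plus strand) had 9.92, 7.30, 14.6 and 10.5 FPKM with HU210 and 11.9, 10.2, 7.83 and 9.65 FPKM with DMSO. Its lowest and its highest library were both HU210 libraries, those of 4 h and 6 h. The log2 changes were −0.24, −0.43, 0.82 and 0.12. At 6 h only 0.504% of the genes tested had a higher change, and the value was 0.84 with the trend removed and 0.53 relative to the mean DMSO level. Exons of Elp4, a gene of the Elongator complex on the opposite strand, share 5542 bases or 27.9% of the exon bases of Pax6. Elp4 had log2 changes of −0.017, −0.28, −0.074 and 0.61. The same limit on strand holds here, so that reads of Elp4 within the value of Pax6 cannot be told apart.

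Smad3 (ENSMUSG00000032402, chr9:63494574-63605801, minus strand) had 2.52, 3.34, 3.71 and 3.64 FPKM with HU210 and 3.40, 3.37, 3.29 and 3.62 FPKM with DMSO. The HU210 library of 2 h stood apart at the low end, and the other libraries lay within 3.29 to 3.71 FPKM. The log2 changes were −0.32, −0.010, 0.13 and 0.0053. The change of 2 h passed 1.3-fold only with a pseudocount of 0.1, at −0.42.

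**Figure D2:**
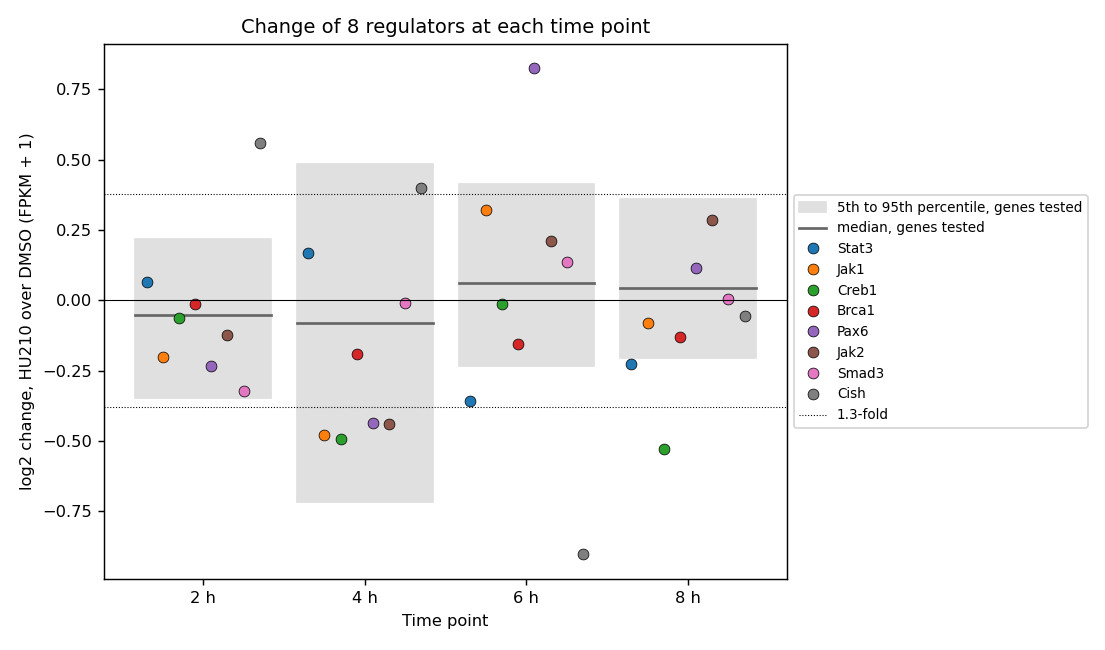
Log2 change of the 8 regulators with a mean of at least 1 FPKM at each time point (vertical axis, HU210 over DMSO after adding 1 to each FPKM), with the grey bar for the 5th to 95th percentile of the 11311 genes tested and dotted lines at 1.3-fold. Pax6 at 6 h (0.82), Cish at 2 h (0.56) and 6 h (−0.90) and Creb1 at 8 h (−0.53) lay outside the bars and past 1.3-fold, whereas the 4 genes past 1.3-fold on the low side at 4 h lay inside the wide bar of that time.

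Counted over the 8 genes, 1 was higher by at least 1.3-fold at 2 h, Cish, where 1.49% of the genes tested were higher, and 0 were lower, where 3.91% were. At 4 h 1 gene, Cish, was higher (8.96% of the genes tested), and 4 genes, Jak1, Jak2, Creb1 and Pax6, were lower (19.9%). At 6 h Pax6 was the 1 gene that was higher (6.38%) and Cish the 1 gene that was lower (1.72%). At 8 h 0 genes were higher (4.38%) and 1 gene, Creb1, was lower (1.44%). The median change of the 8 genes was −0.093, −0.31, 0.061 and −0.070 in time order, and that of all genes tested was −0.051, −0.081, 0.062 and 0.044. Once the GC and length trend was removed, none of the 4 genes stayed past 1.3-fold at 4 h: Jak1 had −0.38, just inside the cutoff, Pax6 −0.28, Jak2 −0.23 and Creb1 −0.19. Cish had 0.31 at 4 h under the same correction.

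**Figure D3:**
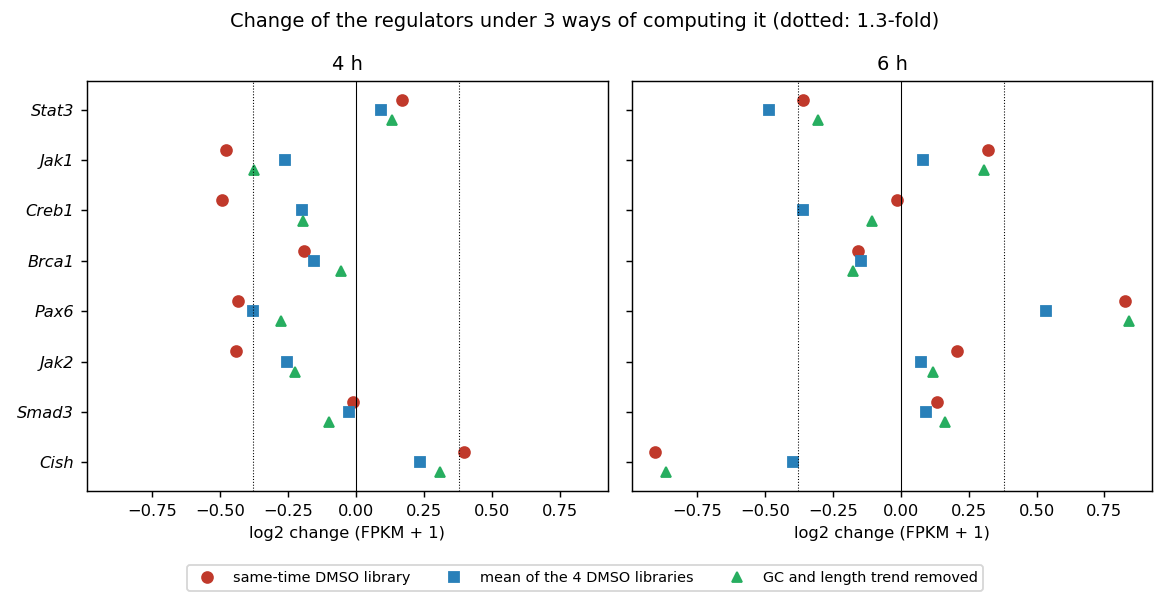
Log2 change of the 8 regulators at 4 h and at 6 h (horizontal axis, FPKM + 1), computed against the DMSO library of the same time (circles), against the average over all 4 DMSO libraries (squares) and after removing the GC and length trend (triangles); dotted lines mark 1.3-fold. At 4 h the low values of Jak1, Creb1, Pax6 and Jak2 all moved inside the dotted lines under both other computations, whereas at 6 h Pax6 and Cish stayed outside under all 3.

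The limma fits used log2(FPKM + 1) of all 11311 genes, with the time points standing in for replicates. The first asked for a shift with HU210 shared by the 4 time points. It called 0 genes at an adjusted p of 0.05 (0%), and 148 genes had an unadjusted p under 0.05 (1.31%), 0 of the 8 regulators among them. Creb1 had the largest estimate of the 8, a log2 difference of −0.27 (SE 0.117), and Brca1 followed with −0.12 (SE 0.0718), each with an adjusted p of 0.99996 by limma. The second fit, of 6 h and 8 h against 2 h and 4 h in both arms together, likewise called 0 genes (0%), with 815 genes at an unadjusted p under 0.05 (7.21%) and 0 of the 8. The smallest adjusted p among the 8 was 0.775 there, for Creb1 at a log2 difference of −0.21 (SE 0.122).

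The third fit tested whether the effect of HU210 at 6 h and 8 h differed from that at 2 h and 4 h. It called 0 genes (0%), and 1926 genes had an unadjusted p under 0.05 (17.0%), among them 4 of the 8 regulators, Cish, Pax6, Jak2 and Stat3. Cish had a difference of −0.96 (SE 0.287, adjusted p = 0.240 by limma), from a mean log2 change of 0.48 at the early times to −0.48 at the late ones. In DMSO Cish was higher at the late times than at the early ones by 0.57 on the log2 scale, while in HU210 it was lower, at −0.39. Pax6 had the opposite sign, with 0.80 (SE 0.252, adjusted p = 0.243 by limma), from −0.34 early to 0.47 late. Jak2 had 0.53 (SE 0.170, adjusted p = 0.245) and Jak1 0.46 (SE 0.194, adjusted p = 0.299). Stat3 had −0.41 (SE 0.141, adjusted p = 0.257 by limma), the sign of Cish. The GC and length trend was left in for this fit, and rho with GC content was 0.15 and 0.50 at the early times and −0.27 and −0.14 at the late ones. With the trend removed, the changes in time order were −0.095, −0.23, 0.12 and 0.25 for Jak2. For Stat3 they were 0.015, 0.13, −0.30 and −0.19. How far the trend enters the late against early differences was not tested.

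Of the 8 genes, 2 were higher with HU210 at both early times and lower at both late ones, Stat3 and Cish, a pattern that 5.22% of the genes tested had. The reverse pattern held for 3, Pax6, Smad3 and Jak2, and for 25.1% of the genes tested. Over the 8 libraries Cish and Pax6 had a Pearson correlation of −0.88 and Jak1 and Jak2 one of 0.77, given as descriptions of points that share their time of harvest and their normalization.

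The other genes of the JAK-STAT pathway were taken from a list of 21 kinases, STATs and inhibitors, of which 19 had a mean of at least 1 FPKM. At 4 h 5 of the 19 were lower by at least 1.3-fold, beside 19.9% of all genes tested, and 1, Pias4, was higher, beside 8.96%. None of the 19 was past the cutoff at 2 h, where 1.49% of all genes tested were higher and 3.91% lower. Stat5a alone was higher at 6 h (6.38%), and Stat5a and Socs5 were at 8 h (4.38%). At 6 h and 8 h 0 were lower, beside 1.72% and 1.44% of all genes tested. The median change of the 19 was −0.032, −0.098, 0.14 and 0.041 at the 4 times. Stat5a, the STAT of prolactin and growth hormone receptors and a classical activator of Cish, stood far out. It had 1.86, 1.96, 5.88 and 5.10 FPKM with HU210 and 2.00, 1.94, 2.09 and 2.35 FPKM with DMSO. The late HU210 libraries were thus above all the other 6, which kept within 1.86 to 2.35 FPKM. The log2 changes were −0.066, 0.013, 1.16 and 0.86, and only 0.203% and 0.460% of the genes tested had a higher change at 6 h and 8 h. The late against early difference was 1.04 (adjusted p = 0.218 by limma). Stat5a lies on the strand opposite to Stat3 and shares 72 exon bases with it, 0.756% of the exon bases of Stat3. Its changes of 6 h and 8 h were opposite in sign to those of Stat3. Against the mean of the 4 DMSO libraries this held at 6 h only, as at 8 h Stat3 had 0.094 and Stat5a 0.98. Stat5b, the close relative of Stat5a, named after its values were seen, had changes of 0.087, −0.014, 0.19 and 0.041.

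The 5 lower genes of 4 h were Socs4, Socs7, Pias1, Pias2 and Ptpn2. Pias2, a SUMO ligase that restrains STATs, had log2 changes of −0.058, −0.63, 0.25 and 0.23, Pias1 of the same family had 0.0063, −0.53, 0.20 and 0.059, and Socs4 had −0.19, −0.56, 0.072 and 0.30. With the trend removed, Socs7 alone of the 5 was past the cutoff at 4 h, at −0.49, where Pias2 had −0.37, Pias1 −0.31, Socs4 −0.26 and Ptpn2 −0.24, and Pias4 came to 0.16. Of 10 tested receptors and ligands that work through gp130 or Janus kinases, 2 were lower by at least 1.3-fold at 2 h (3.91% of all genes tested). At that time 0 were higher (1.49%). At 4 h 1 was higher (8.96%) and 1 was lower (19.9%). At 6 h 0 were past the cutoff, where 6.38% of all genes tested were higher and 1.72% lower. At 8 h 1 was higher (4.38%) and 0 were lower (1.44%). The higher gene of 8 h was Il6, with changes of 0.13, −0.075, −0.10 and 0.54. Ifnar2, a chain of the type I interferon receptor, had −0.45 and 0.49 at 2 h and 4 h and −0.21 at 8 h. Ghr, the growth hormone receptor, was lower at 4 h, at −0.66, and Cntf at 2 h, at −0.51.

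**Figure D4:**
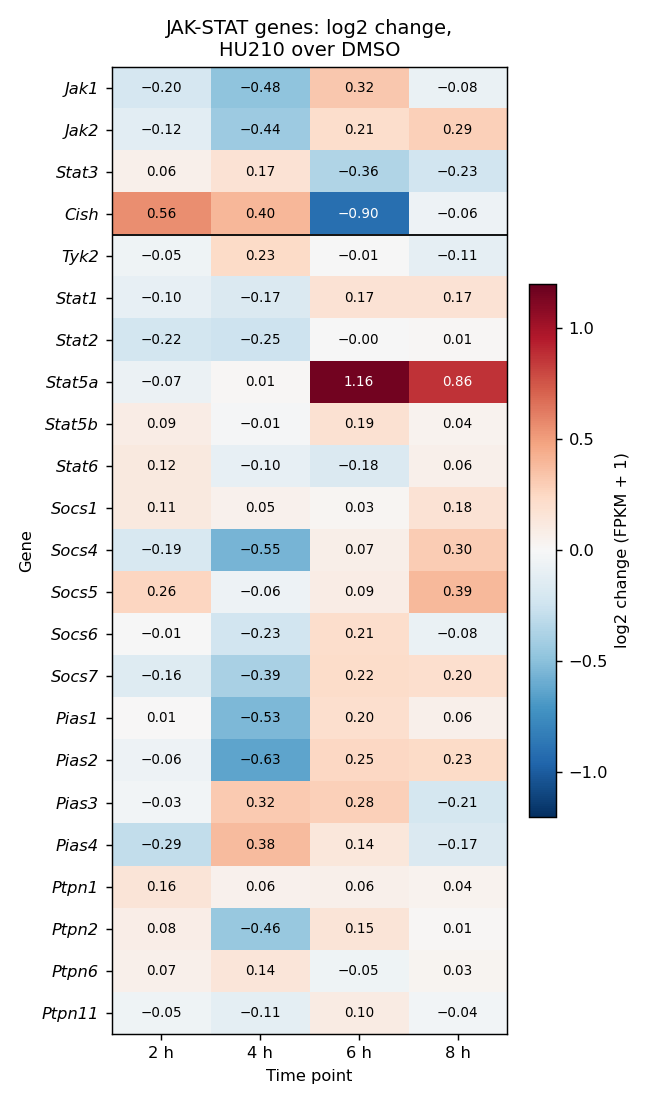
Log2 change with HU210 (FPKM + 1, colour and printed value) of Jak1, Jak2, Stat3 and Cish, above the line, and of the 19 tested genes of the JAK-STAT list, below it, at each time point. Stat5a at 6 h (1.16) and 8 h (0.86) has the highest values of the map and Cish at 6 h (−0.90) the lowest.

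Of 15 tested genes from a list of Stat3 targets, 3 were higher by at least 1.3-fold at 2 h (1.49% of all genes tested) and 3 at 8 h (4.38%), and 1 was at each of 4 h (8.96%) and 6 h (6.38%). Lower values past the cutoff were found for 3 genes, at 4 h alone, where 19.9% of all genes tested were lower. Junb, a part of AP-1, had log2 changes of 0.49, 0.54, −0.21 and 0.21. Ier3, an immediate-early gene, had 0.40, 0.35, −0.083 and 0.56. Mcl1, which protects cells from apoptosis, had −0.12, −0.86, 0.51 and 0.45, and Hif1a, the oxygen-regulated transcription factor, had −0.13, −0.73, 0.31 and 0.10. With the trend removed, Mcl1 had −0.81 and Hif1a −0.44 at 4 h, both past 1.3-fold, and Junb had 0.31, inside it. Pim1 moved past the cutoff, from −0.30 to −0.55. Of the 15 genes, 4 were then lower at 4 h (14.2% of all genes tested) and 0 were higher (6.43%). Junb and Mcl1 had opposite signs at 2, 4 and 6 h and the same sign at 8 h.

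Of 11 tested genes of the Creb family and its coactivators, 1 was past 1.3-fold at any time, the membrane-bound factor Creb3 with 0.49 at 6 h (6.38% of all genes tested were higher then). Crem and Atf1, the closest relatives of Creb1, named after their values were seen, had 0.077 and 0.31 at 8 h, where Creb1 had −0.53. At 4 h Crem had 0.17, or 0.45 with the GC and length trend removed, which is past the cutoff. Of 13 tested genes from a list of Creb targets, 3 were past the cutoff at 2 h and 4 at 8 h, all of them higher, beside 1.49% and 4.38% of all genes tested. At 4 h 2 were higher (8.96%) and 1 was lower (19.9%), and at 6 h 1 was lower (1.72%). Egr1 had 0.97, 0.35, −0.47 and 0.74 and was the gene that was lower at 6 h, and Btg2, an antiproliferative gene, had 0.45 at 2 h. Fos, with 0.40 at 2 h and a mean of 1.85 FPKM, is on the Stat3 target list too. It was counted at 2 h in both lists. Vgf, a secreted neuronal peptide precursor at a mean of 196 FPKM, had 0.22, 0.47, −0.24 and 0.48, and Nr4a2, a nuclear receptor, had −0.090, −0.43, 0.30 and 0.46. With the trend removed Vgf had 0.27 at 4 h, inside the cutoff, and Nr4a2 −0.39, still past it. Dusp1 moved past the cutoff, from −0.29 to −0.41, as did Crem, which is on this list too. Of the 13 genes, 2 were then higher at 4 h (6.43% of all genes tested) and 2 were lower (14.2%).

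Genes of Brca1 complexes numbered 12 tested, of which 1 was lower by at least 1.3-fold at 2 h (3.91% of all genes tested). At 4 h 2 were higher (8.96%) and 2 lower (19.9%). At the late times 0 were past the cutoff, where 6.38% of all genes tested were higher and 1.72% lower at 6 h, and 4.38% and 1.44% at 8 h. Palb2, which links Brca1 to Brca2, had log2 changes of −0.075, 0.55, −0.31 and −0.18, and Brip1, the helicase partner, had −0.44 at 4 h and −0.029 and −0.018 at the late times. Brcc3 and Uimc1 of the Brca1-A complex had −0.43 at 4 h and −0.41 at 2 h. With the trend removed Palb2 had 0.73 at 4 h, while Brip1 with −0.17 and Brcc3 with −0.12 came inside the cutoff. Of 23 tested genes of the Smad and TGF-β list, 1 was higher (8.96% of all genes tested) and 6 were lower (19.9%) at 4 h, and 3 were higher at 6 h (6.38%). With the trend removed, 4 genes of this list were lower at 4 h (14.2% of all genes tested) and 1 was higher (6.43%). Among the 4, Smad7 moved past the cutoff, from −0.35 to −0.55. Bmpr1a and Bmpr2, receptors of bone morphogenetic proteins, had −0.87 and −0.55 at 4 h, or −0.61 and −0.37 with the trend removed, the latter inside the cutoff. Smad1, the effector of these receptors, had −0.79 at 4 h and 0.45 at 6 h, and Tgfb1, the ligand that leads to Smad3, had 0.62 at 4 h. With the trend removed, Smad1 had −0.68 and Tgfb1 0.38 at 4 h, both past the cutoff, the latter barely. Of 4 tested genes of the Pax family and partners, 1 was past the cutoff at any time, Pax5, at −0.53 at 6 h, where Pax6 had 0.82. At 6 h 1.72% of all genes tested were lower by at least 1.3-fold.

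The genes most like a regulator were those with the highest Pearson correlation of log2(FPKM + 1) over the 8 libraries among 10902 genes, given with no test since these libraries share times and normalization. Jak1 had the closest companions, Rragd at 0.990, Ddhd2 at 0.984 and the phosphatase gene Ptpn11 at 0.982. Jak2 went with Rnd3 at 0.973, Map2 at 0.972 and Ikbip at 0.970, and Pax6 with Slx4ip at 0.975, Zfp81 at 0.968 and Rhoq at 0.964. Stat3 went with Gm6728 at 0.960, Mrpl24 at 0.948 and Zfp740 at 0.939, Creb1 with Tead3 at 0.960, Zswim7 at 0.958 and Dysf at 0.953, and Smad3 with Mylpf at 0.962, Elovl5 at 0.955 and Chst12 at 0.949. Brca1 went with Ccdc40 at 0.931, Zfyve26 at 0.927 and Cyfip1 at 0.924. Cish had the least similar companions, Kctd11 at 0.921, Mtrr at 0.885 and Med12 at 0.883. No gene appeared in the lists of 2 regulators.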

How the data were processed

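The libraries are those of N2A cells with HU210 or DMSO at 4 times, 1 library per condition, each grouped by its GEO labels. The authors mapped reads to mm9 with Bowtie2 2.1.0 under TopHat2 2.0.8 and with SAMtools 0.1.7 on Ensembl gene models without new junctions, and computed FPKM with Cufflinks and Cuffdiff under upper-quartile normalization with their options for multi-mapped reads and for fragment bias. Versions of Cufflinks and the gene models, and whether counting used the strand of the stranded library kit, are not given in the sources used here. The FPKM were deposited by the authors with an added 1, which was taken off again. The deposited columns of log2 fold change, p-value and q-value, and a second table of differentially expressed genes, hold the authors' own comparisons and were not used. Read counts per gene are not in the table, so no interval for counting error is given. With upper-quartile normalization, a change in total mRNA per cell is not seen.

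The log2 change is log2((FPKM HU210 + 1)/(FPKM DMSO + 1)) at each time, and a gene counted as changed at 1.3-fold. The pseudocount of 1 understates changes of low genes such as Socs3 and Cish. Of the 16974 genes, 15894 were listed at all times, and the 11311 with a mean of at least 1 FPKM were tested. limma 3.58.1 (R 4.3.3, empirical Bayes with trend, Benjamini-Hochberg adjustment over all genes tested) was fitted to log2(FPKM + 1) with time point as a factor for the HU210 and the late against early HU210 effects, and with treatment as covariate for the late against early times. Time points served as replicates, which they are not, and pooled libraries give no spread between experiments. The GC and length trend was fitted by loess (span 0.3, degree 1). The fit of the shared HU210 effect and the loess trend were tested on simulated data, and the late against early fits were not. Positions and exon lengths are from GENCODE vM1 on mm9. Python 3.11.15, numpy 2.4.6, pandas 2.3.3 and matplotlib 3.10.9 were used.

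The genes and lists were chosen with earlier results of these data known. The text names all the regulators, up to 4 genes of each list that passed 1.3-fold at any time, by the size of the change, and the 3 genes most like each regulator over the libraries. Some further list genes past the cutoff, before or after the trend was removed, are named too. Stat5b, Crem and Atf1 were named after their values were seen. The alternatives were a pseudocount of 0.1, a 1.5-fold cutoff, centring on the median, the mean DMSO reference, the trend removed, no filter on low values, no time factor and leaving out each time point. A marker of the cell type list is not reported here and was left out of its sums.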

Additional observations from a re-analysis of the deposited data

Results flagged for a closer look

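For 5 of the regulators the HU210 effect had opposite signs at the early times (2 h and 4 h) and the late times (6 h and 8 h), each sign held at both times. Among all genes tested, 5.22% were higher early and lower late, as Stat3 and Cish were. The reverse held for 25.1%, as for Pax6, Smad3 and Jak2. The late minus early difference on the log2 scale was −0.41 for Stat3, 0.80 for Pax6, 0.24 for Smad3, −0.96 for Cish and 0.53 for Jak2. The difference was tested with limma, and the adjusted p was 0.257, 0.243, 0.496, 0.240 and 0.245 in the same order, so that none passed 0.05. For Smad3 the values of 4 h and 8 h, −0.010 and 0.0053, were near 0. The GC and length trend was left in these values, and its part in them was not tested. Nor was the part of the single DMSO library of each time. Against the mean of the 4 DMSO libraries, Cish at 8 h was at 0.0020, Pax6 at 2 h at 0.017 and Stat3 at 2 h and 8 h at −0.052 and 0.094, so that the opposite signs no longer held for these genes.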

How the results depend on the processing

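With 1 library per condition the counts of regulators past 1.3-fold rest on few genes. With the mean of the 4 DMSO libraries as reference, 0 were higher at 2 h, 0 were past it on either side at 4 h (0 higher, 0 lower), and 2 were lower at 6 h. A 1.5-fold cutoff left 0 higher at 2 h and at 4 h and 0 lower at 4 h and at 8 h. Removing the GC and length trend left 0 higher and 0 lower at 4 h. Centring each library on its median gave 1 lower at 4 h and 2 lower at 6 h, and a pseudocount of 0.1 gave 1 lower at 2 h. The cause of these moves was not tested. Of the other 45 results, the counts of regulators kept within 1.5 times their value. The limma results among them are counts of genes called, 0 in each main fit and under all its alternatives, so no ratio applies to them. For the shared HU210 effect and the late against early times these alternatives include leaving out each time point (range 0 to 0). The number of genes with an unadjusted p under 0.05 did move. For the shared HU210 effect it was 80 without 2 h and 396 without 4 h, beside 148 in the main fit. The late against early difference of Creb1, 0.0067, changed sign to −0.15 with centring. Of 128 recomputed log2 changes of single regulators, 104 stayed within 1 SD of the DMSO libraries and 24 moved further, and 0 of those past 1.3-fold changed sign. The HU210 and DMSO libraries were paired by time point in the HU210 fit, and without the time factor that fit also called 0 genes, with 91 at an unadjusted p under 0.05. The labels give no replicate numbers. Values of low genes such as Cish and Socs3 have an unknown number of reads behind them.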
